A study of Caenorhabditis elegans with 4 samples.

Results

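The regions described here are the HTZ-1 peaks on the left and right arms of chromosome V of Caenorhabditis elegans, called by chromatin immunoprecipitation and sequencing (ChIP-seq). They were chosen by position and width alone. A peak of the larger of the 2 deposited lists was a member when its midpoint lay below base 5900000 or above base 16550000 of V on the WormBase WS220 build and its width was at most 5000 bp. This gave 282 members, 185 on the left arm and 97 on the right arm, out of 779 peaks on V and 4940 nuclear peaks in all. The same rule found 293 peaks in the second list, 189 on the left arm and 104 on the right arm, out of 4282 nuclear peaks.

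The libraries were HTZ-1 ChIP (2 libraries, rabbit polyclonal antibody JA00001) and input DNA (2 libraries). All came from wild type worms of strain N2, the laboratory reference strain, at the L3 larval stage, from a mixed Male and Hermaphrodite population at 20 °C. No treatment or mutation was part of the design, and whole worms mix all tissues, so a peak cannot be placed in a cell type. The lists carry a start, an end and a score for each peak and name no library. There is therefore no value per replicate and read depth is unknown. Each interval below counts peaks, not worms or libraries.

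HTZ-1 is the worm form of H2A.Z, a variant that takes the place of histone H2A in some nucleosomes. In many organisms it is put in by complexes of the SWR1 kind and lies at nucleosomes next to transcription start sites. The arms of worm autosomes recombine more often than the centres and hold more repeats, and those of V are known for large families of chemoreceptor genes, which encode receptors for smells and tastes in sensory neurons. In the RefSeq gene table (WBcel235), 888 of 1308 protein-coding genes with chemoreceptor symbols (sr and str families) were on V, or 67.9%, against 4995 of 19983 protein-coding genes of any kind, or 25.0%. The srh family had 180 of 220 genes on V, the str family 156 of 193 and the srw family 95 of 109. Nuclear hormone receptors (nhr), which are transcription factors, had 167 of 269 genes on V. The clec family (85 of 239 genes) and the fbxa family (71 of 170) had lower shares on V. These counts are for the whole of V and do not separate arms from centre. The gene table is of another build than the peaks, so it was used only for names and chromosomes. Genes beside single peaks were not analysed here.

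HTZ-1 peaks were sparser on the arms of V than in its centre. In the larger list the arms had 27.6 peaks per Mb over 10.2 Mb, against 37.6 per Mb in the centre (400 peaks over 10.65 Mb). The ratio was 0.736 (exact 95% interval 0.630 to 0.859, two-sided exact binomial test, adjusted p = 0.000873 over the 22 tests run). In the second list the arms had 28.7 peaks per Mb, against 35.1 in the centre, a ratio of 0.818 (0.699 to 0.955, exact binomial test, adjusted p = 0.0386). Members covered 5.62% of the arms, against 8.94% of the centre for peaks of the same width limit. These tests take each peak as independent, so with peaks that cluster the p-values are too small. When peaks less than 1 kb apart were merged, the ratio in the larger list was 0.831 and did not pass (exact binomial test, adjusted p = 0.146). The second-list ratio was 0.851 among peaks at or above the median score and 0.842 without the densest 500 kb of the centre, and neither passed (adjusted p = 0.395 and 0.0896, exact binomial tests).

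The arms were not alike. The left arm had 31.4 peaks per Mb in the larger list, against 22.5 per Mb on the right arm, a ratio of 1.39 (1.08 to 1.80, two-sided exact binomial test, adjusted p = 0.0350). The second list gave 32.0 per Mb on the left arm, against 24.2 per Mb on the right arm, a ratio of 1.33 (1.04 to 1.70) that did not pass (exact binomial test, adjusted p = 0.0578). Set against the centre alone, the right arm had ratios of 0.600 (larger list) and 0.688 (second list), which passed (adjusted p = 6.44e-05 and 0.00424, exact binomial tests). The left arm had ratios of 0.835 and 0.912, and neither passed (adjusted p = 0.134 and 0.521, exact binomial tests). The larger-list ratio of left to right arm was 1.35 with close peaks merged and 1.18 among peaks at or above the median score, and neither passed (adjusted p = 0.146 and 0.712, exact binomial tests). Setting each arm against the centre was chosen after the data were seen.

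Peak numbers varied from window to window along each arm. Full windows of 500 kb, laid from the boundary with the centre outwards, held between 6 and 23 peaks of the larger list on the left arm (median 15, 11 windows). On the right arm they held between 4 and 20 (median 9, 8 windows), and in the centre between 9 and 40 (median 17, 21 windows). The ranges of arms and centre overlapped widely. By larger-list counts, the fullest windows of the left arm were at bases 5400001 to 5900000, beside the centre, with 23 peaks in the larger list and 18 in the second list, and at bases 1900001 to 2400000, with 22 and 24. Its sparsest were at bases 400001 to 900000, with 6 and 9 peaks, and at bases 2900001 to 3400000, with 8 and 9. The fullest of the right arm was at bases 20050001 to 20550000, with 20 and 21 peaks. The highest counts of the centre were 40 peaks at bases 11900001 to 12400000 and 35 at bases 13400001 to 13900000 in the larger list, with 28 in each of these windows in the second list.

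**Figure D1:**
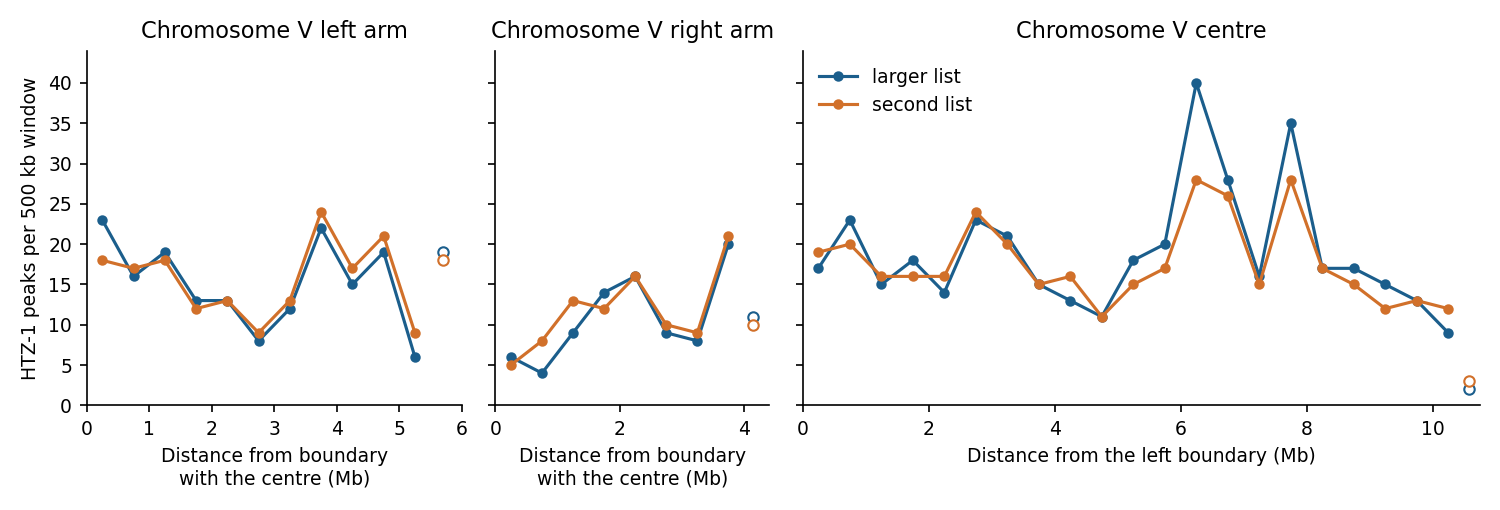
HTZ-1 peaks up to 5000 bp wide in each 500 kb window (vertical axis) against distance from the arm's boundary with the centre, or from the left boundary for the centre, in Mb (horizontal axis), for the left arm, the right arm and the centre of V. Blue is the larger list, orange the second list, and open circles are windows shorter than 500 kb at the end of a region. The right arm starts at 6 and 4 larger-list peaks beside the centre, falls from 16 to 9 and 8 further out, and reaches 20 near its outer end. In the centre 1 window reaches 40.

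The right arm was poorest beside the centre. Its inner 1 Mb held 10 larger-list and 13 second-list peaks, and its outer 1 Mb held 35 and 36. The rise along the arm was not steady. The window at bases 18550001 to 19050000 held 16 peaks in each list. The next 2 windows outwards, up to base 20050000, held 9 and 8 in the larger list and 10 and 9 in the second list. On the left arm the inner 1 Mb held 39 and 35 peaks and the outer 1 Mb held 31 in both lists. The sparsest full window of the arms was on the right arm at bases 17050001 to 17550000, with 4 peaks in the larger list and 8 in the second list. Without that window the ratio of left to right arm in the larger list was 1.28 (0.994 to 1.66) and did not pass (exact binomial test, adjusted p = 0.138). Without it the ratio of arms to centre in the second list was 0.836 (exact binomial test, adjusted p = 0.0868).

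Long stretches of the right arm carried no HTZ-1 peak of any width in either list. The right arm had 13 such stretches of 100 kb or more, 1.95 Mb in all or 45.3% of the arm. The left arm had 9, or 21.9% of its length, and the centre had 10, or 11.5%. These shares place a stretch by its midpoint and are a description with no test. They also depend on peak density, which was lowest on the right arm, and were not separated from it here. The longest on the right arm were V 19224680 to 19488244 (263.6 kb), V 19698545 to 19908256 (209.7 kb) and V 17658724 to 17844158 (185.4 kb). The longest on the left arm were V 3803873 to 4041661 (237.8 kb), V 2878956 to 3087986 (209.0 kb) and V 5286312 to 5431744 (145.4 kb). The longest of the centre measured 154.3 kb, shorter than the first 3 of the right arm and the first 2 of the left arm. Whether these stretches could be mapped by reads was not tested, since input coverage was not used here.

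**Figure D2:**
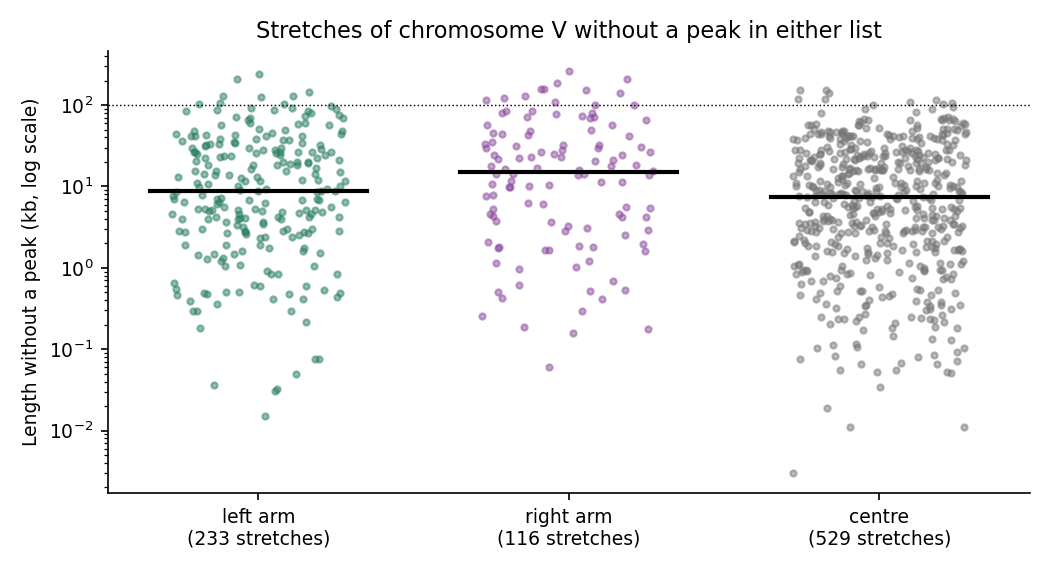
Length in kb (log scale, vertical axis) of each stretch of V with no peak of either list, for the left arm, the right arm and the centre (horizontal axis). Each dot is 1 stretch, black bars are medians and the dotted line is 100 kb; medians were 8.85 kb on the left arm, 14.9 kb on the right arm and 7.41 kb in the centre.

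Peaks also came in dense groups on both arms. The 100 kb with most members on the left arm was V 2191580 to 2291579, with 11 peaks of 1084 to 2716 bp in the larger list and 11 in the second list. Their scores in the larger list ran from 53.7 to 1988 with a median of 219.6, and 10 of the 11 met a second-list peak. On the right arm it was V 18052571 to 18152570, with 10 and 8 peaks. Scores of these 10 ran from 126.4 to 2622 with a median of 368.8, and all 10 met a second-list peak. The densest 100 kb of the centre, V 12012733 to 12112732, held 13 peaks in the larger list and 8 in the second list, and 8 of the 13 were met.

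A close neighbour, meaning another peak of the same list less than 5 kb away edge to edge, was found for 159 of 282 members (56.4%, 95% Wilson interval 50.5 to 62.1%). It was found for 262 of 400 centre peaks (65.5%, 60.7 to 70.0%) and for 68.8% of all nuclear peaks up to 5000 bp in the larger list. The difference of -9.12 percentage points between arms and centre (-16.5 to -1.70) did not pass (Fisher's exact test, adjusted p = 0.0521). When 2 peaks lie this close each counts the other, so the peaks are not independent. The share also depends on peak density, which was lower on the arms, and the 2 were not separated here. In the second list the shares were 48.1% on the arms and 48.7% in the centre, with 50.6% over the whole list and a difference of -0.540 points (-8.13 to 7.07). In the larger list the left arm had 57.3% and the right arm 54.6%; the second list gave 50.3% and 44.2%. Neither of those differences passed (adjusted p = 0.776 and 0.521, Fisher's exact tests).

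Arm peaks were narrower than centre peaks. Members had a median width of 1930 bp (quartiles 1400 and 2459 bp), against 2088 bp in the centre (quartiles 1628 and 2827 bp). Wide peaks, from 3000 to 5000 bp, made up 32 of 282 members (11.3%, 95% Wilson interval 8.15 to 15.6%), against 93 of 400 centre peaks (23.2%, 19.4 to 27.6%). The background over all nuclear peaks up to 5000 bp was 22.5%. The difference was -11.9 percentage points (-17.3 to -6.16, two-sided Fisher's exact test, adjusted p = 0.000873). The second list gave 15.7% on the arms and 25.4% in the centre, with 23.6% over the whole list, a difference of -9.70 points (-15.7 to -3.50, Fisher's exact test, adjusted p = 0.0166). Among second-list peaks at or above the median score it was -14.3 points (adjusted p = 0.0522, Fisher's exact test). Between the arms, the share of wide peaks was 12.4% on the left and 9.28% on the right in the larger list. That was a difference of 3.15 points (-5.28 to 10.2). The second list gave 17.5% and 12.5%, a difference of 4.96 points (-4.10 to 12.8). Neither difference between the arms passed (adjusted p = 0.717 and 0.521, Fisher's exact tests). At the narrow end, peaks under 1500 bp made up 34.1% of left-arm and 25.8% of right-arm members, against 18.0% of centre peaks. In the second list these shares were 28.6%, 25.0% and 17.6% (not tested). On X such peaks made up 28.5% of the larger list and 27.0% of the second list, more than on the right arm in both. The shares on chromosomes I to IV were 21.9% and 19.9%.

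**Figure D3:**
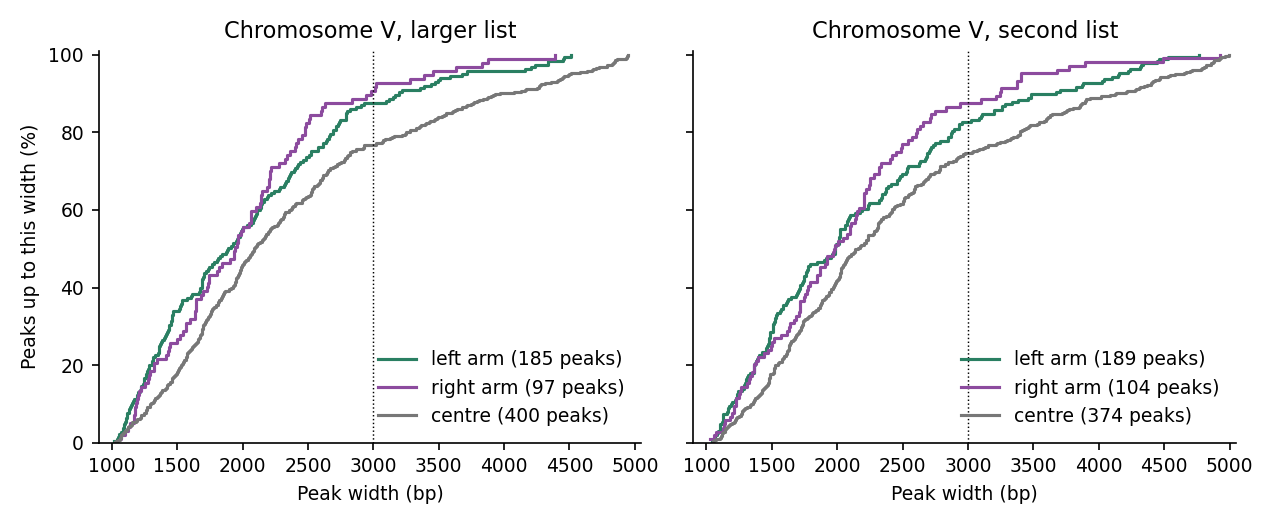
Cumulative share of peaks in percent (vertical axis) up to a given width in bp (horizontal axis) for the left arm, the right arm and the centre of V, in the larger list and in the second list. The dotted line marks 3000 bp; both arm curves lie above the centre curve there, with 12.4% and 9.28% of larger-list arm peaks to its right and 23.2% of centre peaks.

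The widths at the ends of the range were as follows. The narrowest member of the left arm was V 1125686 to 1126706 (1021 bp, score 56.8), and that of the right arm was V 19087206 to 19088265 (1060 bp, score 80.8). Both met a second-list peak whose edges lay within 100 bp of theirs. The widest members were V 2383403 to 2387914 on the left arm (4512 bp, score 359.4) and V 18965895 to 18970283 on the right arm (4389 bp, score 3100). The peaks just over the width limit were V 5431745 to 5436943 (5199 bp, score 1012) and V 16742182 to 16747206 (5025 bp, score 1488). By position, the last member inside the left boundary was V 5789511 to 5793191 (score 1233), and the first peak of up to 5000 bp outside it was V 5939297 to 5941508 (score 1347). At the right boundary the first member was V 16552290 to 16554688 (score 1058), 12.7 kb from the last centre peak, at V 16537083 to 16539630 (score 2999).

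The width limit left out 22 arm peaks of the larger list, 16 on the left arm and 6 on the right arm, with a median width of 6092 bp. That is 7.24% of arm peaks, against 75 of 475 centre peaks, or 15.8%. The share was 3.52% on X, lower than on the arms, and 16.1% on chromosomes I to IV. The widest arm peak was V 4163843 to 4181336 on the left arm, with 17494 bp and a score of 2966, and it had no counterpart in the second list. On the right arm the widest was V 16788627 to 16796915, with 8289 bp and a score of 3100. Its counterpart in the second list was 8384 bp wide with a score of 385.7. The second list had 16 arm peaks over the limit (5.16%), and its widest was that 8384 bp peak. Its shares elsewhere were 11.8% in the centre, 3.05% on X and 13.95% on chromosomes I to IV.

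Scores of arm and centre peaks covered the same range. The score has no stated scale, is the authors' own value per peak and was used to describe and rank peaks within a list. Members scored from 51.7 to 3191 with a median of 329.4, against 50.4 to 3146 with a median of 395.3 in the centre. The value of exactly 3100 was shared by 10 members and 24 centre peaks, so the order above it says little. Of the members, 128 of 282 (45.4%, 95% Wilson interval 39.7 to 51.2%) had a score at or above the median of the list, against 204 of 400 centre peaks (51.0%, 46.1 to 55.9%) and 50% of all nuclear peaks up to 5000 bp by construction. The difference of -5.61 percentage points (-13.1 to 2.00) did not pass (Fisher's exact test, adjusted p = 0.323).

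In the second list the shares in the upper 50% of scores were 51.2% on the arms and 49.2% in the centre (difference 2.00 points, -5.62 to 9.58, Fisher's exact test, adjusted p = 0.741). A higher threshold gave another picture in that list. Scores of 1000 or more were found for 72 of 293 arm peaks (24.6%), against 61 of 374 centre peaks (16.3%), a difference of 8.26 points (2.13 to 14.5) that passed (Fisher's exact test, adjusted p = 0.0312). In the larger list such scores made up 23.8% of members and 24.0% of centre peaks. Over all nuclear peaks up to 5000 bp, 27.1% of the larger list reached 1000, and 19.1% of the second list did. Scores under 100 made up 36 of 185 left-arm members (19.5%) and 6 of 97 right-arm members (6.19%), against 15.0% of centre peaks. On X they made up 18.9% and on chromosomes I to IV 16.2%. The second list gave 18.5% and 16.3% on the arms, 15.8% in the centre, 16.3% on X and 18.25% on chromosomes I to IV. None of these shares of low scores was tested. By arm, the median score was 306.7 on the left and 414.6 on the right in the larger list, and 313.5 and 485.4 in the second list. The share in the upper 50% differed between left and right arm by -7.81 points (-19.8 to 4.33) and by -11.6 points (-23.0 to 0.384), and neither passed (adjusted p = 0.471 and 0.148, Fisher's exact tests). Wider members had higher scores, with a Spearman rho of 0.744 on the left arm and 0.590 on the right arm in the larger list (a description over peaks that share their libraries). In the second list rho was 0.551 and 0.568. Elsewhere in the larger list it was 0.703 in the centre, 0.587 on X and 0.709 on chromosomes I to IV.

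Most arm peaks were found in both lists. Of the 282 members, 250 (88.7%, 95% Wilson interval 84.4 to 91.8%) overlapped a second-list peak by at least 1 bp. Of the 400 centre peaks 324 did so (81.0%, 76.9 to 84.5%), as did 78.6% of all nuclear peaks up to 5000 bp. The difference of 7.65 percentage points (2.13 to 12.9) passed (two-sided Fisher's exact test, adjusted p = 0.0350). It was 1.76 points (-2.78 to 6.07) once peaks less than 1 kb apart were merged (Fisher's exact test, adjusted p = 0.604) and 5.79 points among peaks at or above the median score (Fisher's exact test, adjusted p = 0.114). Fisher's exact test also takes each peak as independent, so with peaks that cluster its p-values are too small. In the other direction 245 of 293 second-list arm peaks (83.6%) met a larger-list peak, against 317 of 374 centre peaks (84.8%) and 84.9% over the list, a difference of -1.14 points (-6.85 to 4.37). The left arm had 85.9% of its members met and the right arm 93.8%, a difference of -7.87 points (-14.5 to 0.0464, Fisher's exact test, adjusted p = 0.123).

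**Figure D4:**
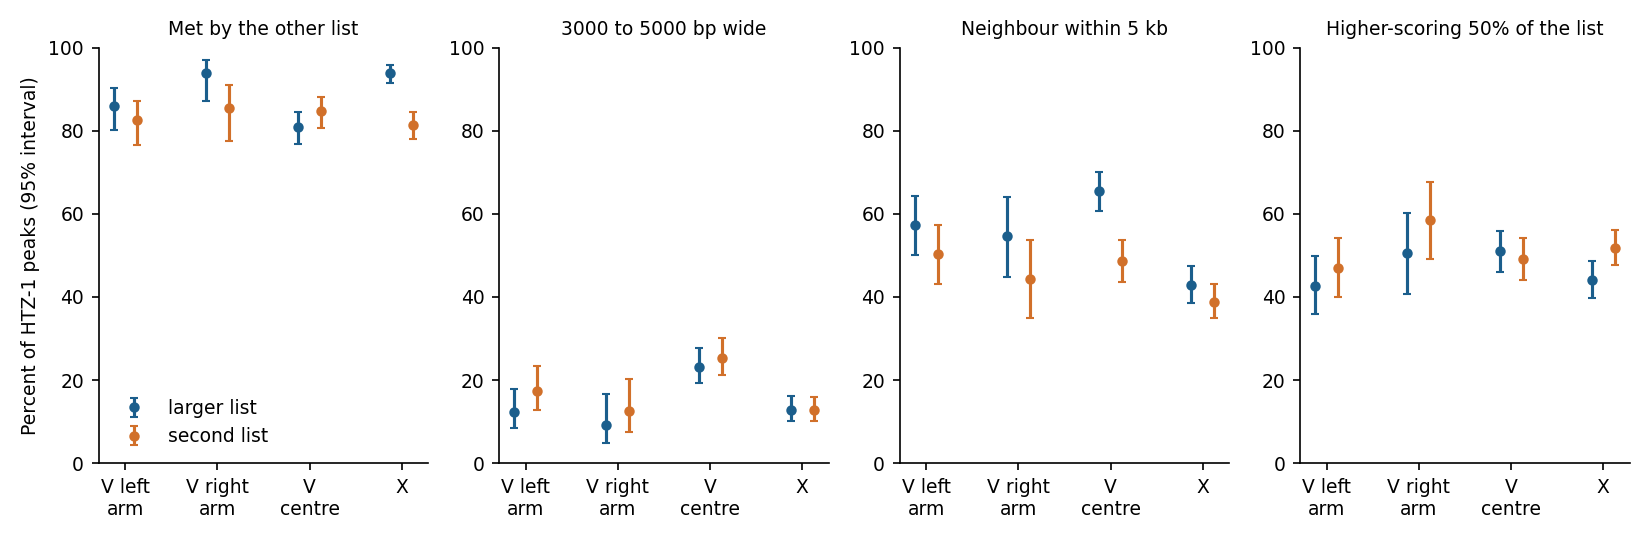
Percent of HTZ-1 peaks up to 5000 bp (vertical axis) that met the other list, were 3000 to 5000 bp wide, had a neighbour within 5 kb, or scored at or above the median of their list, for the V left arm, V right arm, V centre and X (horizontal axis). Points are shares, bars are 95% Wilson intervals, blue is the larger list and orange the second list; the wide share is 12.4% and 9.28% on the arms and 23.2% in the centre in the larger list.

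In the larger list the share of members that were met moved with isolation and with score. Members with no other peak within 5 kb were met in 121 of 123 cases (98.4%), and centre peaks of that kind in 138 of 138. Members with a neighbour less than 1 kb away were met in 56 of 77 cases (72.7%, 61.9 to 81.4%), and such centre peaks in 82 of 138 (59.4%, 51.1 to 67.3%). Peaks with so close a neighbour made up 27.3% of members and 34.5% of centre peaks, and the part of this in the difference between arms and centre was not tested. On the arms of the second list, 126 of 152 peaks with no other within 5 kb were met (82.9%), 79 of 95 with one at 1 to 5 kb (83.2%) and 40 of 46 with one nearer than 1 kb (87.0%), so that pattern with isolation was not seen there. By score in the larger list, 30 of 42 members under 100 were met (71.4%), and all 67 members with 1000 or more. The rise with score was not particular to the arms. Under 100 the shares met were 60.0% in the centre, 81.8% on X and 50.1% on chromosomes I to IV. With 1000 or more they were 96.9%, 100% and 92.4%. The 32 members that were not met had a median score of 150.7, against 396.3 for the 250 that were. Of the 32, 26 lay on the left arm and 6 on the right arm.

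Where both lists had a peak, the edges nearly coincided. On the arms 244 pairs matched peak to peak, each meeting no other. Their starts differed by a median of 21.5 bp and their ends by 21.5 bp, and both edges lay within 100 bp of each other in 190 pairs (77.9%), against 80.3% of 315 centre pairs. Scores of arm pairs correlated with a Spearman rho of 0.824, as a description over peaks called on the same experiment, against 0.778 in the centre. Ranked within its own list among peaks up to 5000 bp, the typical arm pair stood at the 48.8th percentile in the larger list and the 54.8th in the second list. Centre pairs stood at the 55.9th and 52.5th percentiles.

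**Figure D5:**
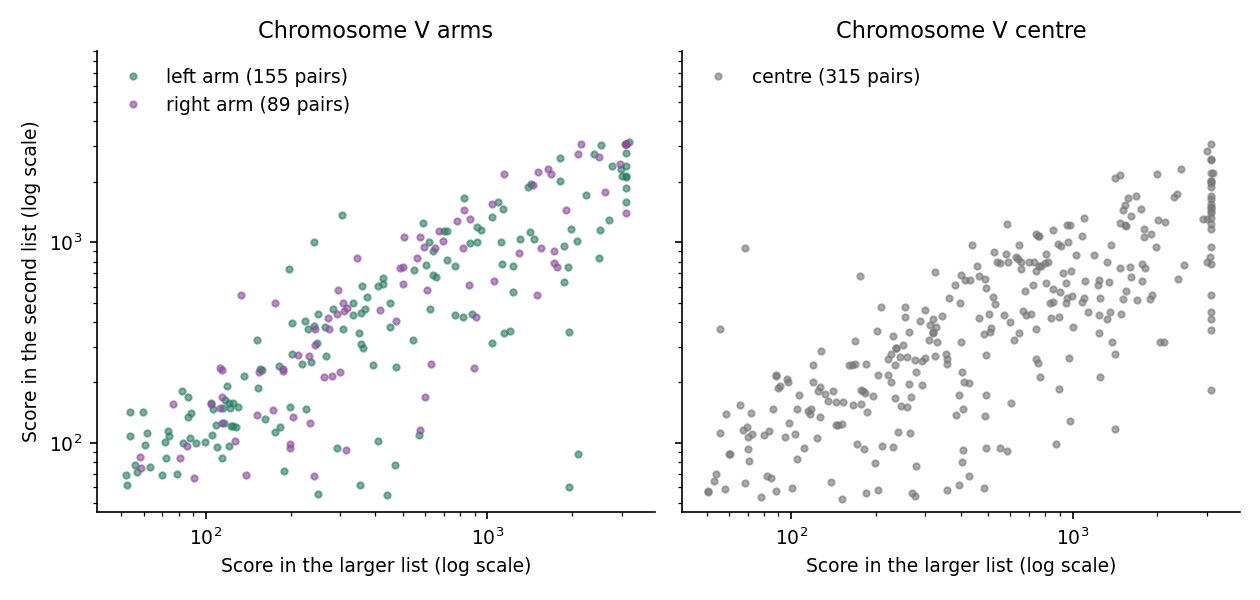
Score of each matched peak in the larger list (horizontal axis, log scale) against its score in the second list (vertical axis, log scale), for arms (155 left and 89 right pairs) and centre (315 pairs) of V. Each dot is 1 pair; the column of dots at the right edge holds peaks listed at 3100 in the larger list.

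The lists parted at some of the highest scores of the second list. Of the 67 members with a score of 1000 or more in the larger list, 0 lacked a second-list peak. That allows a share of up to 4.48% (3 counts of 67), and the 95% Wilson upper limit is 5.42%. Such peaks lacked one in 0 of 87 cases on X and in 3 of 96 in the centre. Over all nuclear peaks up to 5000 bp the count was 71 of 1148 (6.19%). In the second list 10 of 72 such arm peaks (13.9%, 95% Wilson interval 7.72 to 23.7%) had no larger-list peak, against 8 of 61 in the centre (13.1%, 6.80 to 23.8%). Of the 12 arm peaks at exactly 3100 in the second list, 7 had no counterpart, against 3 of 4 in the centre and 40 of 73 over all nuclear peaks up to 5000 bp. With scores of 1000 or more, 68 of 723 such peaks had none.

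These sites were singled out after their values were seen. On the left arm all 3 peaks at 3100 were of this kind: V 264578 to 267684, V 1104091 to 1105570 and V 5282852 to 5286311. The nearest larger-list peak lay 26.7, 20.1 and 4.62 kb away from them. On the right arm they were V 16706801 to 16709897, V 17127654 to 17132579, V 17308244 to 17312016 and V 18399886 to 18402164, with the nearest larger-list peak 32.3, 21.7, 151.8 and 101.1 kb away. The sparsest window of the right arm held 2 of these, and a further second-list peak there, V 17383668 to 17385586 with a score of 2519, lay 128.4 kb from any larger-list peak. Input coverage at these sites was not used here.

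The sites with the highest listed scores on the left arm were led by V 1002695 to 1005425, 2731 bp wide. It scored 3191 in the larger list and 3174 in the second list, the highest listed arm score in both. Since many peaks share the value 3100, it is not known whether such scores truly rank above it. The next left-arm members, all at 3100, were V 2637007 to 2640593, V 2007832 to 2011269, V 1195128 to 1198846 and V 1820770 to 1824977, with second-list scores of 2772, 2403, 2130 and 2114. They were 3438 to 4208 bp wide, in the range held by 23 of the 185 left-arm members. None of these 5 had another larger-list peak within 5 kb.

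On the right arm 3 sites were at 3100 in both lists: V 16964104 to 16967735 (3632 bp), V 19643073 to 19645283 (2211 bp) and V 20179576 to 20181857 (2282 bp). V 16964104 stood alone, with 43.6 kb to the nearest larger-list peak, in a window of 6 peaks. V 18965895 to 18970283 scored 3100 in the larger list and 1394 in the second list and had a neighbour 428 bp away. V 17869841 to 17872267 scored 3082 and 3100. The outermost members were V 2928 to 4057 on the left arm (1130 bp, score 236.1) and V 20851279 to 20853685 on the right arm (2407 bp, score 1726), and both had a counterpart. The second list also had a peak at the very start of V, ending at base 551 with a score of 203.2, whose start was not given and which was kept out of the counts.

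Against the X chromosome no difference in density passed the test. The V arms held 27.6 peaks per Mb, against 26.3 per Mb on X in the larger list, so the ratio was 1.05 (0.903 to 1.22, exact binomial test, adjusted p = 0.713). The second list had 28.7 per Mb on the arms and 30.5 per Mb on X, a ratio of 0.942 (interval 0.814 to 1.09; adjusted p = 0.629, exact binomial test). Median widths were 1930 bp on the arms and 1819 bp on X, and wide peaks made up 11.3% and 12.9% (larger list, not tested). Close neighbours were found for 56.4% of members and for 42.9% of X peaks, a difference that was not tested. In the second list wide peaks made up 15.7% on the arms and 12.8% on X, and close neighbours 48.1% and 38.9%. A peak of the other list was met by 88.7% of members and 94.0% of X peaks in the larger list. In the second list those shares were 83.6% and 81.5%. None of these was tested.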

How the data were processed

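The authors deposited 2 peak lists on WormBase WS220, per the file headers, each with a start, an end and a score per peak; the score has no stated scale. The submitters' processing notes name BWA. The source field reads MA2C and peak names begin with MACS, per the file headers. Caller settings, the use of input and any pooling of libraries are not given in the sources used here. Comment lines of a liftover step name no peak of the V arms.

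V was taken to end at its last peak end, base 20853910. Regions were set by peak midpoint. Counts per length were compared by exact binomial tests and shares by Fisher's exact tests, two-sided, with Benjamini-Hochberg adjustment over 22 tests and a threshold of 0.05. Both kinds of test take each peak as independent, so with peaks that cluster all p-values are too small. Intervals are exact for ratios, Wilson for shares and Newcombe for differences of shares. Functions were tested on simulated peaks. SciPy 1.17.1 gave the tests, pandas 2.3.3 and NumPy 2.4.6 the tables and matplotlib 3.10.9 the figures, under Python 3.11.15. Named sites were the 5 highest-scoring members per arm in the larger list and 3 in the second list (ties by the score in the other list, then by start), the 3 longest peak-free stretches and the densest 100 kb per arm, and the peaks at the limits of width and position. The members, lists and rules were chosen with earlier results of these data known. No sequence is printed, since no genome of WS220 was used here.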

Additional observations from a re-analysis of the deposited data

How the results depend on the processing

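No paired analysis was possible because the lists hold no values per library, and for the same reason no replicate was left out. Of 116 repeats of the 22 comparisons, 91 kept the direction and the side of the threshold (for ratios of covered bases, the interval). Only 6 of the 22 had passed, so the 91 include comparisons that passed in neither setting. In 12 repeats a comparison that had passed no longer did, and in 4 one that had not passed did. In 8 the direction turned round, and 1 ratio of covered bases left its interval. With peaks less than 1 kb apart merged, larger-list densities gave arms to centre 0.831, left to right arm 1.35 and arms to X 0.907 (turned round), the difference in peaks met between arms and centre was 1.76 points and that in close neighbours between left and right arm -0.160 (turned round). In the upper 50% of scores, left to right arm was 1.18 and peaks met 5.79 points in the larger list; in the second list arms to centre was 0.851, wide peaks -14.3 points and peaks met on left against right arm 1.97 (turned round). With no width limit, the larger list passed for peaks met on left against right arm (-11.1 points, adjusted p = 0.0212, Fisher's exact test) and for close neighbours on arms against centre (-9.20 points, adjusted p = 0.0276, Fisher's exact test), and the upper 50% of scores in the second list gave -1.05 points (turned round). With the centre as the middle 33.3%, second-list left to right arm was 1.30 and passed, and arms against centre turned to -4.91 points for higher scores and 5.58 points for close neighbours. Neighbours within 2 kb gave 3.43 points (arms against centre) and -2.92 points (left against right arm) in the second list, both turned round. A score of 1000 or more gave 8.26 points in the second list. Covered bases gave arms to centre 0.629 in the larger list. The following were chosen after the data were seen. The left arm alone against the centre gave 0.835 and 0.912 and did not pass. Without the sparsest 500 kb of the arms, left to right arm was 1.28 in the larger list and arms to centre 0.836 in the second list, and without the densest 500 kb of the centre arms to centre was 0.842 in the second list; none of these passed. The cause was not tested in any case. Read depth is unknown, so no limit from depth is given.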
